A study of Homo sapiens with 6 samples.

Results

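Secreted chemokines and interleukins form part of the secretome of a melanoma cell, the set of proteins it releases to its surroundings. The genes described here are 10 such ligands: the CXC chemokines CXCL8, CXCL1, CXCL2 and CXCL3, the CC chemokine CCL2, the IL1 ligands IL1A and IL1B, and the IL6-family cytokines IL6, IL11 and LIF. They were taken by name from the table of read counts, which holds 21631 genes. All 10 had a row, and all 10 were among the 16910 genes with enough reads to be tested. The cells were A-375, an established human melanoma line, labelled sgCTRL for a control guide or sgSEPHS2 for a guide against SEPHS2, a gene of selenocysteine synthesis, with 3 libraries per label. No agent, dose or time is named, and the labels do not say whether the edited cells were a pool or a clone. Differences between founding cells and an effect of the guide therefore cannot be told apart. The question is how these ligand mRNAs differ between cells labelled control and cells labelled SEPHS2 knockout.

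In a cell, most of these ligand genes are switched on by NF-kB, AP-1 and C/EBP transcription factors downstream of IL1, TNF and growth factor signals, and their mRNAs are short-lived. IL1A and IL1B bind the IL1 receptor and can in turn switch on CXCL8 and IL6, so the ligands are known for forming loops in tumor cells. CXC chemokines that carry a glutamate-leucine-arginine motif draw neutrophils through CXCR2, CCL2 draws monocytes through CCR2, and the IL6 family signals through the shared receptor chain gp130 to STAT3.

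The libraries held 34606145 to 43405579 counted reads, so 1 CPM, which is 1 read in 1000000 after scaling, stood for 34.1 to 43.1 reads. SEPHS2 mRNA itself was not lower in the libraries labelled sgSEPHS2 (155.8 ± 3.32 against 173 ± 3.85 CPM, SD, n = 3 per group; log2 change 0.15, edgeR adjusted p = 0.00401). A gene-level count does not show whether a reading frame was changed, so the labels carry every direction given here. Of the melanoma markers, SOX10 had 619 ± 15.6 and 569 ± 13 CPM, while the group means of the pigment genes PMEL, TYR and DCT were under 1 CPM and those of MLANA were 1.17 and 1.301 CPM. Of 7 monocyte or macrophage markers measured, 6 had means under 1 CPM in both groups, among them PTPRC and CD68. The summed level of those 7 was 4.60 to 5.64 CPM in sgCTRL and 8.01 to 8.24 CPM in sgSEPHS2, with LYZ as the largest part. That sum was higher where the ligand mRNAs were lower. Of 6 fibroblast markers, the sum was 73.2 to 74.9 CPM in sgCTRL and 48.3 to 54.6 CPM in sgSEPHS2. This sum was lower, as the ligands were, but its markers did not move together. At an edgeR adjusted p under 0.05, 3 of the 6 were lower, 1 was higher and 2 passed in neither direction. The higher one was LUM (log2 change 0.76, edgeR adjusted p = 2.16e-05). DCN and PDGFRA, which did not pass, had log2 changes of 0.85 and -0.08 (edgeR adjusted p = 0.0756 and 0.565). Most of the fibroblast sum was PDGFRB (52.5 ± 0.836 and 28.9 ± 2.21 CPM), while DCN and COL1A2 had means under 1 CPM in both groups. The sums of the T or NK cell markers (6.42 to 6.76 and 5.56 to 7.06 CPM), endothelial markers (9.69 to 10.2 and 8.08 to 9.15 CPM) and keratinocyte markers (34.4 to 35.5 and 42.5 to 45.5 CPM, mostly KRT10) moved less than the fibroblast sum. A sum can hide single markers. At the same threshold, 2 of 2 tested keratinocyte markers were higher, KRT14 with 0.317 ± 0.0883 and 1.42 ± 0.401 CPM. Of 3 tested T or NK cell markers 1 was higher, and of 4 tested endothelial markers 1 was lower. The lowest total of any gene with a row was 7 reads, so a marker without reads has no row. Rows existed for 7 of 10 listed monocyte or macrophage markers, 3 of 6 T or NK cell markers and 3 of 6 keratinocyte markers. The part of these markers in the ligand results was not tested.

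Of the 10 ligand mRNAs, 9 fell in sgSEPHS2 and IL6 was not called, with a log2 change below 0 as well. A gene was called at a Benjamini-Hochberg adjusted p under 0.05 from edgeR's quasi-likelihood test over all genes tested. Of all tested genes, 23.4% were called lower, 22.0% higher and 45.4% in either direction. Log2 changes are log2 fold changes, sgSEPHS2 over sgCTRL. The median of the 10 was -0.998, against 0.01 for all genes tested. The same 9 mRNAs had every sgSEPHS2 library below every sgCTRL library in CPM, a pattern seen for 25.6% of all tested genes. Summed over the 10, the ligands took 421 to 443 CPM in the sgCTRL libraries and 195 to 205 CPM in the sgSEPHS2 libraries. In a bulk library, fewer cells making an mRNA and less of it per cell cannot be told apart.

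**Figure D1:**
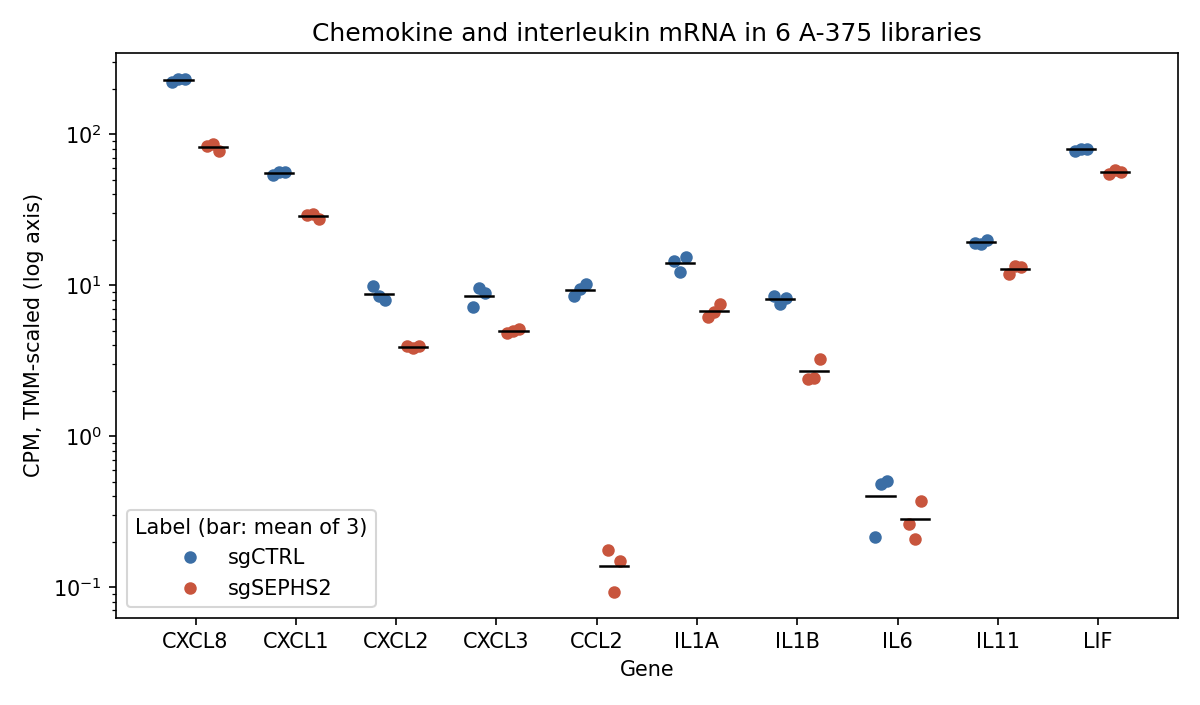
Level of each ligand mRNA in CPM (log axis) in the 3 sgCTRL and 3 sgSEPHS2 libraries, with a bar at each mean of 3. The groups are separate for 9 genes and overlap for IL6, and CCL2 sits between 8.47 and 10.1 CPM in sgCTRL and between 0.0929 and 0.176 CPM in sgSEPHS2.

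CXCL8, CXCL1, CXCL2 and CXCL3 lie in a chemokine cluster on chromosome 4 that spans 359 kb from the start of CXCL8 to the end of CXCL2 (GRCh38.p14), and all are protein-coding. The bases before each start site are shown because the 4 genes carry the same short run of letters. The part of these letters in the change of the mRNAs was not tested. Each line gives the 150 bases upstream of the RefSeq start on GRCh38.p14, read 5′ to 3′ on the gene's strand. Capitals mark matches to the NF-kB letters GGANTTTCC or the AP-1 letters TGANTCA. The windows are chr4:73740419-73740568 (plus strand), chr4:73869243-73869392 (plus), chr4:74099196-74099345 (minus) and chr4:74038690-74038839 (minus).
CXCL8: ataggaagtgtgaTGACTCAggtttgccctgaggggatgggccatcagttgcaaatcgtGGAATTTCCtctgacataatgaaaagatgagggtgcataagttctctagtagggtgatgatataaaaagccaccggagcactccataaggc
CXCL1: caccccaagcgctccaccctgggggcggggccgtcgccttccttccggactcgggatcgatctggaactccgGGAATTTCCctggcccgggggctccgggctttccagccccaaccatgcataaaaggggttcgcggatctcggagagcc
CXCL2: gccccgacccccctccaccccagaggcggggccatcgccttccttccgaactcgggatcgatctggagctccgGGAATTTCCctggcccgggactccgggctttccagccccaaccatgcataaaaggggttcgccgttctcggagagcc
CXCL3: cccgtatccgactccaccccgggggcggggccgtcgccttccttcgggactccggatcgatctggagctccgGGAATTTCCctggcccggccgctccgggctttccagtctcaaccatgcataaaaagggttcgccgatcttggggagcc

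The NF-kB letters, searched on both strands over 250 bases upstream, lay 91 to 83 bases before the start in CXCL8 and 78 to 70 bases before it in CXCL1 and CXCL3. In CXCL2 they lay 77 to 69 bases before it. All 4 matches read GGAATTTCC. Of the 35116 promoter windows in the RefSeq table, 1.45% held a match. AP-1 letters occurred in CXCL8 alone of these 4, and in 6.57% of all windows. A match is a description of letters and shows no binding. The upstream windows of CXCL1 and CXCL3 were identical in 81.4% of aligned columns, CXCL1 and CXCL2 in 70.1%, and CXCL1 and CXCL8 in 43.9%.

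CXCL8, the main neutrophil chemokine of human cells, was the most abundant of the 10. It had 9328, 9655 and 9352 reads in the sgCTRL libraries and 2862, 3708 and 3138 in the sgSEPHS2 libraries. Its level in sgSEPHS2 was 35.9% of control, a log2 change of -1.48 with SE 0.05 (edgeR adjusted p = 1.11e-15). CXCL8 supplied 52.6% to 53.5% of all reads of the 10 genes in sgCTRL and 39.7% to 42.5% in sgSEPHS2. Its share was lower in every sgSEPHS2 library than in any sgCTRL library.

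CXCL1, a growth-stimulating chemokine first described in melanoma cells, had 54.0, 56.3 and 56.8 CPM in sgCTRL and 29.4, 29.9 and 27.7 CPM in sgSEPHS2. The lowest control library lay well above the highest sgSEPHS2 library. Its log2 change was -0.94, SE 0.05 (edgeR adjusted p = 4.40e-12). CXCL2, a close paralog of CXCL1, had 9.82, 8.50 and 7.99 CPM against 3.95, 3.85 and 3.97, a log2 change of -1.16, SE 0.12 (edgeR adjusted p = 5.14e-08). For CXCL3, the third of these paralogs, the values were 7.24, 9.54 and 8.87 CPM in sgCTRL and 4.86, 5.01 and 5.16 CPM in sgSEPHS2. The fold change of CXCL3 on the log2 scale was -0.77, SE 0.12 (edgeR adjusted p = 1.58e-05), the smallest of the 4 chemokines.

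CXCL1, CXCL2 and CXCL3 are near-identical in places, so the split of reads between them is uncertain. Of the stretches of 50 bases in the longest coding transcript, 5.73% in CXCL1, 9.24% in CXCL2 and 5.26% in CXCL3 also occurred in another of the 4 genes, and 0% in CXCL8. The sum of the reads of the 3 paralogs does not depend on how reads were split between them. Shared reads that were dropped or counted more than once would still affect it. The sum had a log2 change of -0.94, SE 0.05 (edgeR adjusted p = 1.07e-12).

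Ratios of reads inside a library need no scaling between libraries. CXCL8 had 4.10, 4.15 and 4.13 reads per read of CXCL1 in the sgCTRL libraries and 2.85, 2.88 and 2.80 in the sgSEPHS2 libraries. These ranges were far apart, and the difference in log2 ratio was -0.54. CXCL1 per CXCL2 was 6.41 ± 0.827 and 7.39 ± 0.401 (SD, n = 3), with overlapping libraries. CXCL1 per CXCL3 was 6.59 ± 0.795 and 5.79 ± 0.375, also overlapping. An exact two-sided permutation test of 3 against 3 libraries cannot go below p = 0.1, the value it gave for CXCL8 per CXCL1 (0.2 after adjustment over 6 ratios). It gave 0.2 and 0.3 for the ratios with CXCL2 and CXCL3. The 6 ratios were chosen after the values were seen.

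**Figure D2:**
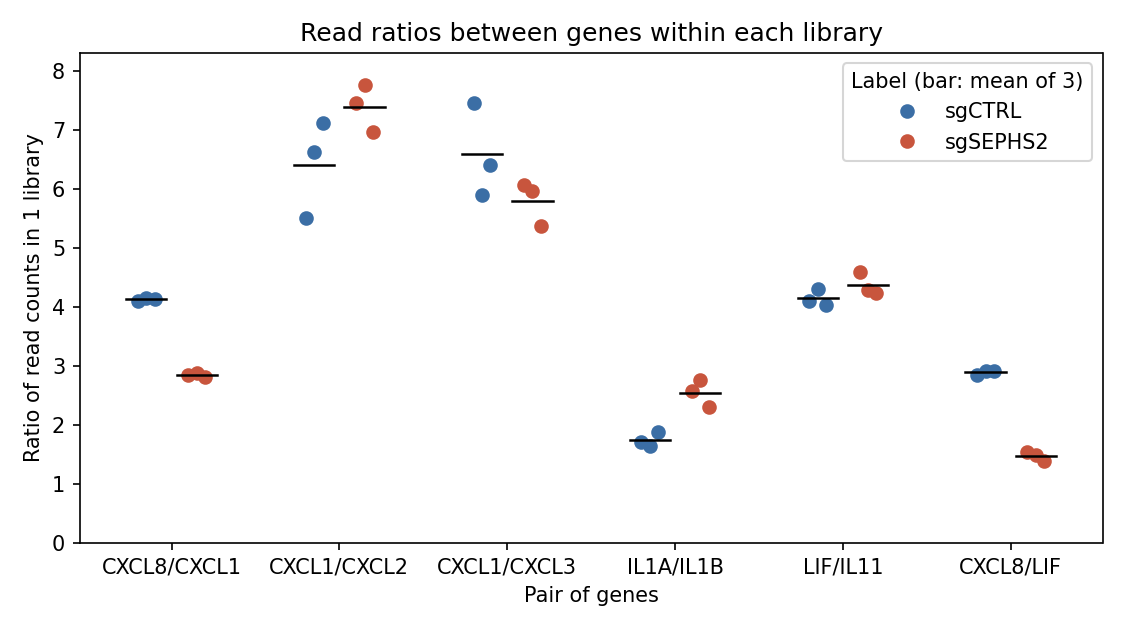
Ratio of read counts between pairs of ligand genes in each of the 3 sgCTRL and 3 sgSEPHS2 libraries, on a linear axis from 0, with a bar at each mean of 3. CXCL8/CXCL1 and CXCL8/LIF are lower and IL1A/IL1B higher in every sgSEPHS2 library, while the other 3 pairs overlap.

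CCL2 (chromosome 17, 34255285 to 34257203, GRCh38.p14), the ligand that draws monocytes through CCR2, fell furthest. It had 357, 389 and 405 reads in the sgCTRL libraries and 6, 4 and 6 reads in the sgSEPHS2 libraries. That is 68.7 times more in the sgCTRL group after scaling (95% exact conditional binomial interval 42.1 to 121, which covers counting error only). The fitted log2 change was -6.07, SE 0.21 (edgeR adjusted p = 4.30e-15), the 47th lowest of the 16910 genes tested. The nearest tested protein-coding genes on either side were TMEM98, 1311 kb before it, and CCT6B, 671 kb after it. TMEM98 fell by 0.83 on the log2 scale (edgeR adjusted p = 2.44e-09), and CCT6B had a log2 change of 0.07 (adjusted p = 0.782).

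IL1A and IL1B encode the ligands of the IL1 receptor, IL1A active as made and IL1B after cleavage by caspase-1. They lie next to each other on chromosome 2 within 62.9 kb. IL1A had 14.4, 12.3 and 15.5 CPM in sgCTRL and 6.18, 6.64 and 7.48 CPM in sgSEPHS2, with no overlap. Its log2 change was -1.05, SE 0.10 (edgeR adjusted p = 2.61e-08). For IL1B the sgCTRL libraries had 356, 312 and 329 reads and the sgSEPHS2 libraries 82, 104 and 132. All sgSEPHS2 libraries were low, sgSEPHS2 replicate 3 the least so. IL1B showed a log2 change of -1.58, SE 0.13 (edgeR adjusted p = 3.93e-09). Its order against CXCL8 depended on the libraries used: without sgSEPHS2 replicate 2 the values were -1.50 for IL1B and -1.51 for CXCL8. IL1A reads per IL1B read went from 1.74 ± 0.128 to 2.54 ± 0.229 (SD, n = 3 per group) without overlap (exact permutation p = 0.1, adjusted 0.2).

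The gene on the other side of IL1A from IL1B, CKAP2L, is 9.32 kb away and rose slightly (log2 change 0.13, edgeR adjusted p = 0.0188). Around the chromosome 4 cluster, MTHFD2L, 15.4 kb beyond CXCL2, had 16.5 ± 1.208 and 17 ± 2.28 CPM (edgeR adjusted p = 0.727). Over the 12 tested protein-coding genes nearest to the ligand genes, 2 were called lower, 3 higher and 7 not called, with a median log2 change of -0.07. These shares are close to the 23.4% and 22.0% of all tested genes.

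IL6, IL11 and LIF signal through gp130 together with IL6R, IL11RA and LIFR in that order. LIF was the most abundant of them, with 3289, 3318 and 3213 reads in sgCTRL and 1859, 2486 and 2275 in sgSEPHS2. Scaled to depth these were 78.0 to 80.5 CPM and 54.4 to 57.7 CPM, well apart. LIF had a log2 change of -0.50, SE 0.04 (edgeR adjusted p = 8.84e-09). IL11, a cytokine linked to TGF-beta and AP-1 signals, had 19.0, 18.7 and 20.0 CPM against 11.9, 13.5 and 13.2. Every sgSEPHS2 library was lower, and the log2 change was -0.58, SE 0.07 (edgeR adjusted p = 1.06e-06). LIF per IL11 was 4.14 ± 0.137 and 4.37 ± 0.193, with overlapping libraries (exact permutation p = 0.3, adjusted 0.3). CXCL8 per LIF was 2.89 ± 0.0428 and 1.47 ± 0.0822, without overlap (exact permutation p = 0.1, adjusted 0.2).

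IL6, a cytokine that many melanoma lines secrete, was close to the limit of detection. It had 9, 20 and 20 reads in sgCTRL and 9, 9 and 15 in sgSEPHS2. The groups overlapped, since sgCTRL replicate 1 had as few reads as sgSEPHS2 replicates 1 and 2. The ratio of group totals was 1.42, with a 95% exact conditional binomial interval of 0.893 to 2.28 (counting error only). The log2 change was -0.50, SE 0.47 (edgeR adjusted p = 0.414), so a fall of the size seen in LIF was not detectable at this depth. In GENCODE 29, the gene span of STEAP1B among others overlaps IL6 on the other strand, and that of LIF-AS1 among others overlaps LIF. Overlap of exons was not examined, and the RefSeq span of STEAP1B ends 227 kb before IL6. Without the strand setting, reads of partners cannot be told apart where exons overlap. STEAP1B rose by a log2 change of 0.23 (edgeR adjusted p = 0.00816).

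The upstream bases of IL6, IL1A and IL11 are shown because the ligand that did not pass the test carries the same kind of NF-kB letters as the chemokines, while IL1A and IL11 carry AP-1 letters. Windows and capitals are as above, at chr7:22727050-22727199 (plus strand), chr2:112784494-112784643 (minus) and chr19:55370464-55370613 (minus).
IL6: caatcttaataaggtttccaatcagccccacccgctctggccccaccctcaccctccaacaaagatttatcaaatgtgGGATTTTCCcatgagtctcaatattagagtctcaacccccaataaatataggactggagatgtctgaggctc
IL1A: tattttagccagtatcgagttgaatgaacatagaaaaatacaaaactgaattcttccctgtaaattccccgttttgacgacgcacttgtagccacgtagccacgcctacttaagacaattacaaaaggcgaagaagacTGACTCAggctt
IL11: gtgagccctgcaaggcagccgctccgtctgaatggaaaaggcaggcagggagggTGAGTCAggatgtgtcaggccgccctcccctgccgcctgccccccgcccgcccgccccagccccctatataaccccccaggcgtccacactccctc

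IL6 holds GGATTTTCC 72 to 64 bases before its start. IL1A holds TGACTCA 12 to 6 bases before its start, and IL11 holds TGAGTCA 96 to 90 bases before its own. In all, 5 of the 8 genes with a window matched the NF-kB letters (CXCL8, CXCL1, CXCL2, CXCL3 and IL6). The windows of CXCL1, CXCL2 and CXCL3 are those of close paralogs, and the letters were chosen with earlier results of these data known. The tally is therefore a description and no test of enrichment. The AP-1 letters were matched by 3 (CXCL8, IL1A and IL11). The C/EBP letters TTGCNNAA were matched by CXCL2, IL1B and IL6, and by 9.05% of all windows. Near matches were not counted: ttgcaaat in the CXCL8 window differs from these letters in its last base only. IL1B matched neither the NF-kB nor the AP-1 letters in this window.

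**Figure D3:**
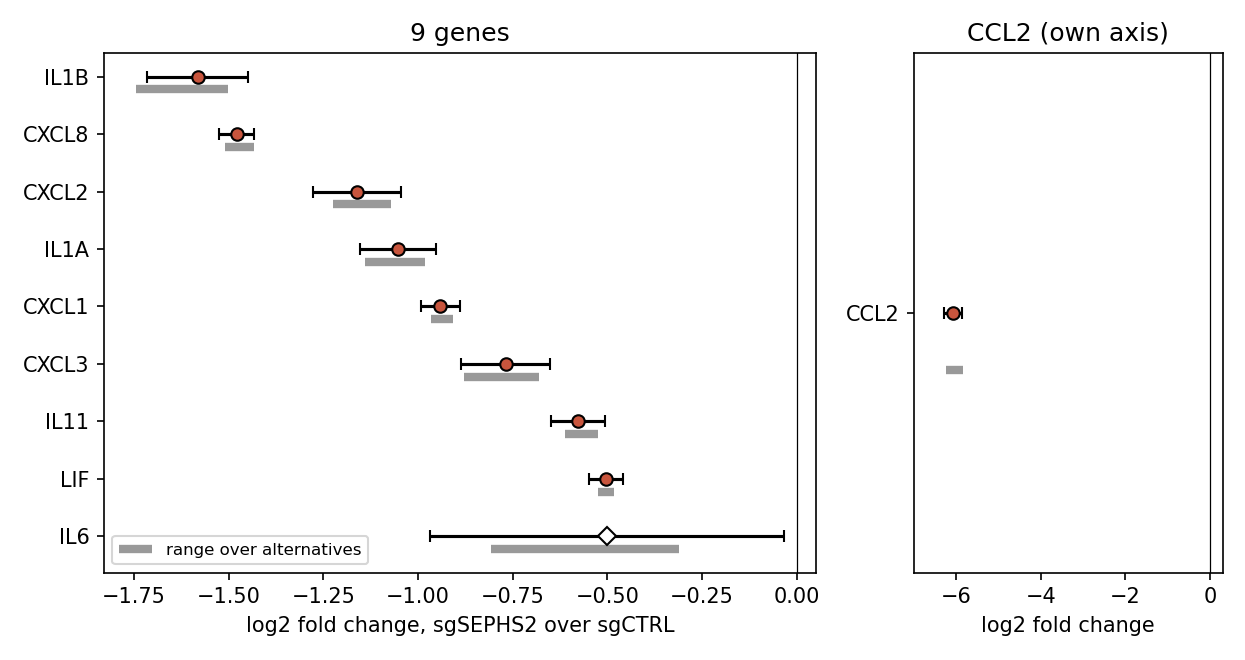
Log2 change of each ligand mRNA, sgSEPHS2 over sgCTRL, with its SE (black) and the range over alternative settings (grey). Filled circles were called, the open diamond (IL6) was not, and CCL2 has its own axis, at -6.07.

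Levels were compared between genes as CPM per kb of annotated exon. In sgCTRL the order was CXCL8 (101 ± 3.23, SD, n = 3), CXCL1 (43.0 ± 1.16), LIF (20.1 ± 0.347), IL11, IL1A, CXCL2, CCL2, CXCL3, IL1B and IL6 (0.193 ± 0.078). The libraries of IL11 and IL1A overlapped on this scale, as did those of IL1A and CXCL2 and those of CCL2 and CXCL3, so those neighbours were not separate. In sgSEPHS2 the first 6 places were the same genes in the same order, from CXCL8 at 36.3 ± 1.97 to CXCL2 at 2.62 ± 0.0426 CPM per kb. CCL2 went from place 7 (4.71 ± 0.423 CPM per kb) to place 10 (0.0699 ± 0.0212). With the longest coding transcript as the length, CCL2 went from place 4 to place 9 and the first 3 places stayed as they were. On that length CCL2 and IL6 had 0.187 and 0.184 CPM per kb in sgSEPHS2, so places 9 and 10 were not resolved. The middle of the order depended on the length used: CXCL3 held place 8 in sgCTRL with all exons and place 6 with that transcript.

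**Figure D4:**
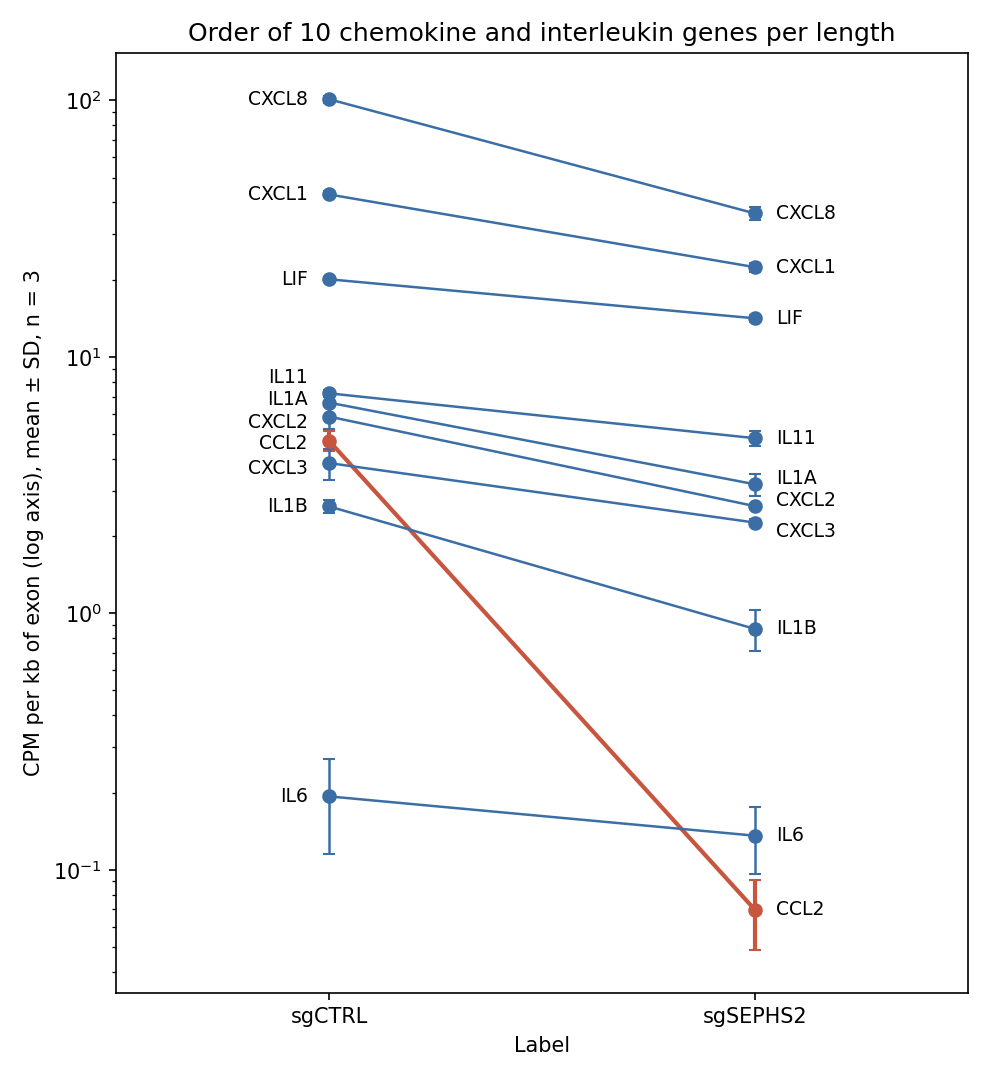
Mean level of each ligand mRNA in CPM per kb of annotated exon (log axis) with SD over 3 libraries, in sgCTRL and sgSEPHS2. Lines join the same gene; CCL2 crosses 3 others, from place 7 to place 10.

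Other ligands of the same families followed in part. The counts in this and the following lists stand beside 23.4% of all tested genes called lower and 22.0% called higher. Of 13 further CXC chemokines in the list, 4 had rows and 2 had enough reads to be tested, and both fell. CXCL10, an interferon-induced chemokine for T cells, had a log2 change of -1.70 (edgeR adjusted p = 4.50e-04), and CXCL16, a membrane-bound chemokine, -0.47 (adjusted p = 0.00126). Of 4 tested CC, XC and CX3C chemokines, 2 fell and 1 rose. CCL20 fell from 4.79 ± 0.494 to 1.47 ± 0.16 CPM and CX3CL1 from 5.55 ± 0.323 to 1.86 ± 0.223 CPM (SD, n = 3). CCL28 had 20.6 ± 0.72 and 23.7 ± 1.62 CPM (edgeR adjusted p = 0.0129), a call lost without sgCTRL replicate 3 (adjusted p = 0.0582) or sgSEPHS2 replicate 3 (adjusted p = 0.0872). The number of these chemokines called higher was 2 without sgCTRL replicate 1, sgCTRL replicate 2, sgSEPHS2 replicate 1 or sgSEPHS2 replicate 2.

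Of 6 further tested IL1- and IL6-family genes, 2 fell and 4 were not called. IL18, another ligand cleaved by caspase-1, and EBI3, a subunit of IL27, had -1.04 and -1.003 on the log2 scale (edgeR adjusted p = 3.99e-06 and 7.76e-06). Of 15 other tested interleukins and colony stimulating factors, 6 fell and 3 rose, with a median log2 change of -0.07. CSF1, the macrophage growth factor, fell from 22.0 ± 1.4 to 14.0 ± 0.392 CPM. TNF, at 0.842 ± 0.146 and 0.2 ± 0.0903 CPM, and IL32 had log2 changes of -2.04 and -1.25 at low levels. IL24, an IL10-family cytokine first found in melanoma cells, went the other way, from 5.04 ± 0.68 to 11.1 ± 1.55 CPM (log2 change 1.14, edgeR adjusted p = 9.50e-08).

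Of 12 receptors listed for the 10 ligands, 8 had rows and 6 were tested. Those 6 serve the IL1 and IL6 families, and no chemokine receptor was tested. Among them 5 fell and 1 (IL6R) was not called, against 23.4% of all tested genes called lower. The median log2 change of the 6 was -0.69. LIFR fell from 173.8 ± 4.16 to 93.7 ± 5.69 CPM (log2 change -0.89, edgeR adjusted p = 1.94e-12). IL6ST, which encodes gp130, fell from 453 ± 11.3 to 279 ± 11.5 CPM (-0.70, adjusted p = 2.07e-11). IL11RA and the IL1 receptor subunit IL1RAP had log2 changes of -0.69 and -0.43. So ligand and receptor mRNAs of the LIF and IL11 axes were both lower. Of 20 tested genes that act just below these receptors, 7 fell, 1 rose and 12 were not called. SOCS3, a STAT3-induced inhibitor of gp130, fell from 51.4 ± 0.697 to 24.1 ± 1.84 CPM. IRAK2, a kinase of the IL1 receptor complex, fell by 1.37 on the log2 scale. TAB3, an adaptor of the TAK1 kinase, had -0.26 and IRAK1 rose by 0.41 (edgeR adjusted p = 1.23e-06). Without sgCTRL replicate 1 the number called higher was 2.

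Of 17 tested NF-kB and C/EBP genes, 12 fell and 1 rose, with a median log2 change of -0.44. Of all tested genes, 23.4% were called lower and 22.0% higher. NFKB1 (log2 change -0.07), NFKBIB, IKBKB and IKBKG were not called, and RELA, called lower, had -0.17. These genes, too, were named after their values were seen. NFKBIZ, a nuclear cofactor needed for IL6 induction, fell from 98.7 ± 3.97 to 47.6 ± 2.31 CPM. NFKBIA and TNFAIP3, inhibitors that NF-kB itself switches on, had log2 changes of -1.01 and -1.60. The subunit gene NFKB2 had -0.77 (edgeR adjusted p = 4.33e-11). The gene that rose, CHUK, named after its value was seen, encodes a kinase of the pathway and had a log2 change of 0.13 (adjusted p = 0.0295). Its call was lost without sgCTRL replicate 1 (0.0692), sgCTRL replicate 3 (0.122), sgSEPHS2 replicate 1 (0.0988) or sgSEPHS2 replicate 2 (0.0837), all adjusted p from edgeR.

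Factors that act on the decay or stability of short-lived mRNAs had 3 of 15 called lower and 3 higher. Those shares lie close to the 23.4% lower and 22.0% higher of all tested genes. ZC3H12A, an RNase that cleaves IL6 mRNA, fell from 8.40 ± 0.698 to 5.08 ± 0.708 CPM, and ZFP36L1, a decay factor, had a log2 change of -0.45. HNRNPD and TIAL1 had 0.29 and 0.13 (edgeR adjusted p = 7.18e-06 and 0.0098). The TIAL1 call was lost without sgCTRL replicate 2 (adjusted p = 0.0516) or sgSEPHS2 replicate 2 (adjusted p = 0.0512), and 1 gene of the list was higher without sgCTRL replicate 2. Of 12 genes for the processing or release of IL1, 4 fell and 5 rose. NLRP1, a sensor of the inflammasome, rose from 16.9 ± 0.726 to 26.8 ± 0.92 CPM and HAX1 by a log2 change of 0.27, while AIM2, another sensor, had -0.82 and S100A13, which aids IL1A release, -0.36. Without sgSEPHS2 replicate 3, 3 genes of this list were higher.

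**Figure D5:**
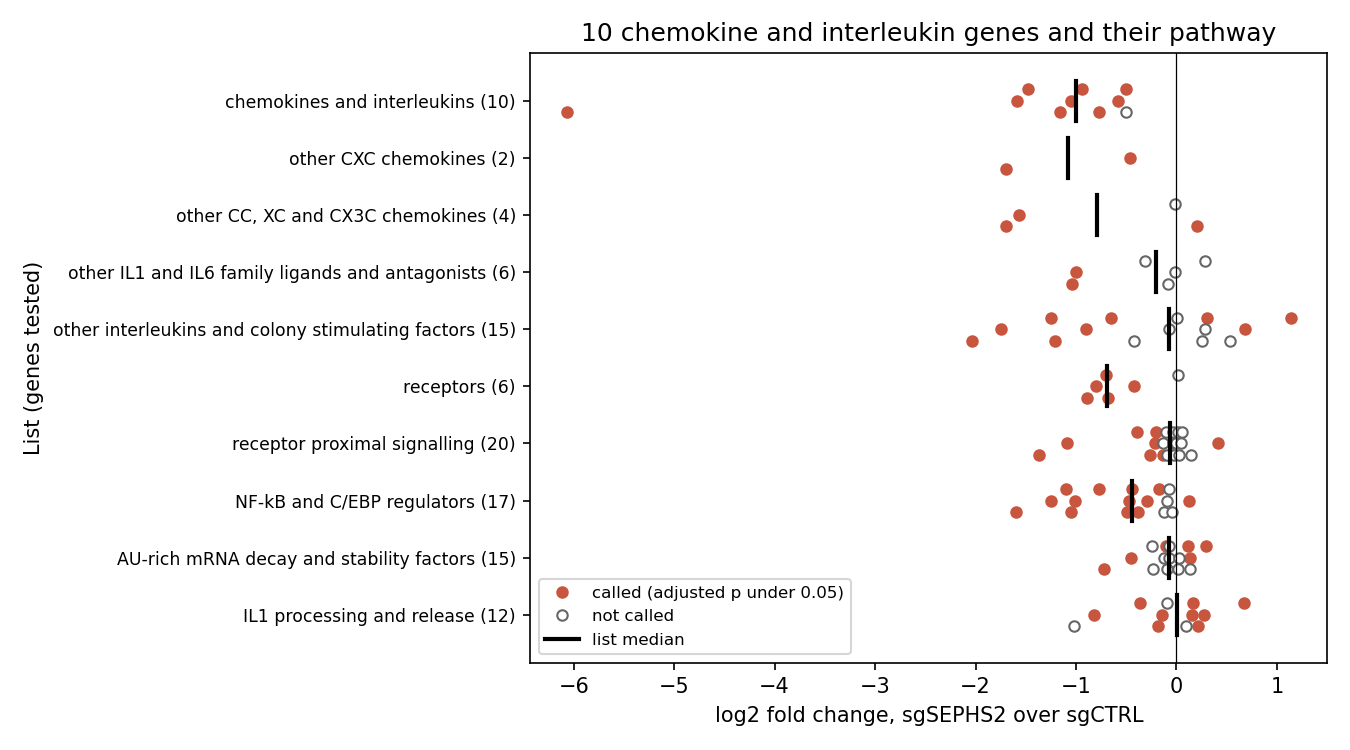
Log2 change, sgSEPHS2 over sgCTRL, of every tested gene in each list (number tested in brackets), filled where called and open where not, with a bar at the list median. The chemokines and interleukins have a median of -0.998, the receptors -0.69 and the IL1 processing genes 0.00.

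As a description, the genes with a profile nearest to that of CXCL8 were TEAD2, a transcription factor of the Hippo pathway, CEMIP, a hyaluronan-degrading protein, and ATP8B2, a lipid flippase. Their Pearson correlations with CXCL8 in log2 CPM over the 6 libraries were 0.9998, 0.9995 and 0.9995. Of 14034 genes compared, 318 had a correlation above 0.99. The 6 libraries form 2 groups, which the genes share.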

How the data were processed

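RNA from 6 A-375 libraries was sequenced, and groups and replicate numbers come from the sample titles. Nothing says that replicates came from separate cultures; p-values then reflect the spread of these libraries alone, which may be technical. The authors deposited unnormalized read counts, 1 row per gene symbol. Per the submitters' processing notes, HISAT2 2.2.1, SAMtools 1.21 and featureCounts 2.0.6 were used with GRCh38. For the annotation, strand setting and multi-mapped reads, the choice made is not given in the sources used here. Those settings could change the counts of paralogs and overlapping genes.

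Genes passing edgeR's default expression filter (16910 of 21631) entered edgeR 4.0.16 (R 4.3.3), with TMM factors and the two-sided quasi-likelihood test, adjusted over all of them by Benjamini-Hochberg. CPM use TMM-scaled library sizes, and values after ± are SDs of 3 libraries. The 10 genes, the lists and the motifs were chosen with earlier results of these data known. A gene of 1 list is not reported here. Named genes are the 10, up to 4 called genes per list by smallest adjusted p, and 3 genes most like CXCL8. Cell type markers and a few more NF-kB genes were named besides these. Ratios within libraries and neighbouring genes were added later. Sequences and positions are RefSeq's on GRCh38.p14, which holds upstream windows for 8 of the 10 genes. Exon lengths are from GENCODE 29. Counts were also simulated for 2 groups of 3 libraries, with 200 changed genes drawn and 16665 tested. There 73.1% of 1.5-fold, 85.9% of 2-fold and 100% of 4-fold changes were recovered, with 14 false calls. The real comparison called 45.4% of genes, a far larger share than was changed in the simulation, so these rates may not hold for it. Alternatives used DESeq2 1.42.0 and limma 3.58.1 among others. Figures used matplotlib 3.10.9.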

Additional observations from a re-analysis of the deposited data

How the results depend on the processing

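Over the 15 alternative settings, 9 of the 10 ligand genes were called lower and 0 higher in each setting. The settings were other scaling factors, other filters, DESeq2, limma-voom, a replicate block, an adjusted p under 0.01 and each library left out in turn. CXCL8 ranged from -1.51 to -1.43 on the log2 scale, CCL2 from -6.25 to -5.83, IL1B from -1.74 to -1.50 and CXCL3 from -0.88 to -0.68. IL6 ranged from -0.81 to -0.31 over the 14 settings that tested it, with adjusted p from 0.223 to 0.694. The paralog sum ranged from -0.97 to -0.92. The median of all genes moved by less than 0.1 (log2) with each scaling.

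Same-numbered libraries had correlations of 0.03, -0.02 and -0.09 in their deviations from group means, and differently numbered ones -0.17 to 0.17. Deviations from a mean of 3 libraries cancel within a group, so these correlations depend on each other. The same-numbered values lay inside the range of the others. How the libraries were prepared cannot be read from that. With the replicate block, 3997 genes were lower and 3777 higher against 3950 and 3723, and the ligand counts were 9 and 0. Of the other CXC chemokines 1 was called lower, and of the other interleukins 3, when at least 1 CPM in 3 libraries was required, which tests fewer genes. With no filter on low counts, 3 other CC, XC or CX3C chemokines were higher. At an adjusted p under 0.01, CCL28 and CHUK were not called and 3 IL1 processing genes were higher. At 34.1 to 43.1 reads per CPM, depth limits IL6 most.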
